A study of Mus musculus with 9 samples.

Results

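The genes described here are the Hox genes of the clusters Hoxa, Hoxb, Hoxc and Hoxd, which were measured in fetal mouse ovaries before and after grafting into male hosts. Members were taken by symbol, as genes whose name is Hoxa, Hoxb, Hoxc or Hoxd with a number from 1 to 13 and that had a probe set annotated to no other gene. A probe set is the group of short probes with which the Affymetrix array reads a transcript near its 3' end. Where a Hox gene had several such probe sets, the probe set with the highest mean over the 9 arrays was used. In all, 33 Hox genes had a value, out of 18194 genes measured in the same way. There were 9 Hoxa, 9 Hoxb, 7 Hoxc and 8 Hoxd genes. Hox genes with no probe set of their own were not analysed here.

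The study asked how XX ovaries change when they grow in a male animal. Ovaries of ICR embryos of stage E13.0 (13 days post coitum), separated from the mesonephros, were grafted under the kidney capsule of XY nude (BALB/c nu/nu) mice. Grafts were recovered 4 or 7 days later, or on days 10, 15 and 20, and ovaries of the same stage that had not been grafted served as day 0. The mothers of all embryos, those of day 0 included, had been given busulfan, an alkylating drug that depletes germ cells. Days 0, 10 and 20 had 2 arrays each, labelled as biological replicates, and days 4, 7 and 15 had 1 array each, and every graft array held RNA pooled from approximately 10 grafts. For the ungrafted day 0 ovaries no pool size is stated. The samples name ICR as the strain, whereas the methods also name C57BL/6 for the pregnant females. Nude hosts lack T cells but keep other immune cells, vessels and connective tissue that can enter a graft, and the kidney lies directly under it. In pooled tissue, fewer cells of a type and less RNA per cell cannot be told apart.

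Hox genes encode transcription factors with a homeodomain, and mammals carry them in 4 clusters that arose by duplication of a single ancestral cluster. Genes at the same place in different clusters are called paralogues and share a number, and their order along the chromosome follows the order in which they are used along the body axis, from low numbers near the head to high numbers near the tail. The embryonic gonad lies in the trunk, whose mesoderm carries low and middle numbers and, further back, numbers 9 to 11. In the female tract, Hoxa9, Hoxa10, Hoxa11 and Hoxa13 give the Müllerian duct its regions. Groups 10 and 11 also act in the kidney.

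The Hoxd cluster held the members that moved most, and their promoters are shown so that their letters can be set beside the values given later. The stretches run from 250 bases before to 50 bases after the annotated start of transcription in RefSeq (build GRCm38.p6, chromosome 2, forward strand), in the order of the genes on the chromosome. Hoxd10 is at chr2:74691641-74691940, Hoxd9 at chr2:74697513-74697812, Hoxd8 at chr2:74704365-74704664 and Hoxd3 at chr2:74711743-74712042. Hoxd8 is included because it lies between Hoxd9 and Hoxd3 and its values differed little from day 0 on most graft days. Capitals mark matches on either strand to short motifs.
Hoxd10: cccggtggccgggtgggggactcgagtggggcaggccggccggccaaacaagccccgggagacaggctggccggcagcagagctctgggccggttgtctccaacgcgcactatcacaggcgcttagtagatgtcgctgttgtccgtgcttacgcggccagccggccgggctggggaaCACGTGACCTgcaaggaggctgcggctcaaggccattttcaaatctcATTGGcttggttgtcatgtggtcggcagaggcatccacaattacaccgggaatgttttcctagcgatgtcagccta
Hoxd9: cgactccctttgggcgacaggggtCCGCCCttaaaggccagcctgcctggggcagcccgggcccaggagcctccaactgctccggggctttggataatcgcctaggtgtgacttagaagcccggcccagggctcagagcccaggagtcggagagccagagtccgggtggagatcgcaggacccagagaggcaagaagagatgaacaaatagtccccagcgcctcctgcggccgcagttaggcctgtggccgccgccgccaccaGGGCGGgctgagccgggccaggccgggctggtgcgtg
Hoxd8: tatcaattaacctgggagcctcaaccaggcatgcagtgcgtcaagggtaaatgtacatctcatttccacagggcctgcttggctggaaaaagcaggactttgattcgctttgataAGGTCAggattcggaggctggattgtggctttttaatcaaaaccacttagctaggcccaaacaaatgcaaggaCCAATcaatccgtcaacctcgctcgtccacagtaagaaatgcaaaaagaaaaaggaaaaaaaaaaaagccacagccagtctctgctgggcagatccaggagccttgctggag
Hoxd3: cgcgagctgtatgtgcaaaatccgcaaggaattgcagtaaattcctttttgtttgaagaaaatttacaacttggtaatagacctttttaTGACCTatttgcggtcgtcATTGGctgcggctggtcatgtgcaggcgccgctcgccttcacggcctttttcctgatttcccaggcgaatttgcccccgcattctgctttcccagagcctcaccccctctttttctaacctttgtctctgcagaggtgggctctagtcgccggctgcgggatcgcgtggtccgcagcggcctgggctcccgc

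The motifs searched were the TATA box (TATAAA), the CCAAT box (CCAAT), the GC box (GGGCGG), the E-box (CACGTG), a site of posterior HOX proteins (TTTATGG), a nuclear receptor half-site (AGGTCA) and a half-site of the androgen and glucocorticoid receptors (AGAACA). Hoxd10, Hoxd8 and Hoxd3 each held 1 CCAAT box and 1 nuclear receptor half-site, and in Hoxd10 the half-site overlaps an E-box. Hoxd9 held 2 GC boxes and no other motif of the set. Among 32851 promoters of this length, 37.4% held a CCAAT box, 35.7% a GC box, 16.3% the nuclear receptor half-site and 7.15% the E-box. The TATA box was found in 13.6% of all promoters, the posterior HOX site in 2.75% and the androgen and glucocorticoid receptor half-site in 19.0%, and none of the 4 stretches shown held any of these. Of the 21 Hox promoters in the table, which belong to 19 genes, 12 held a CCAAT box, 8 a GC box, 6 the nuclear receptor half-site, 4 the E-box, 2 the TATA box, 2 the androgen and glucocorticoid receptor half-site and 0 the posterior HOX site. The Hox promoters had a median GC content of 58% and a median of 15 CpG dinucleotides, against 52.7% and 7 over all promoters. Hoxd8, at 46.7% GC and 6 CpG, was the poorest in both of the 4 shown, and Hoxd9 had 68.3% and 20, Hoxd10 62.7% and 22, and Hoxd3 54% and 20.

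Before the results, 1 array has to be named. Day 20 replicate 1 carried transcripts of the host kidney. On a list of 12 proximal tubule genes, its median log2 intensity was 11.63, against 5.51 to 6.54 on the other 8 arrays, and 12 of 12 were highest there. Genes of the loop, distal tubule and collecting duct had a median of 8.17 against 5.38 to 5.82, with 10 of 10 highest, and adipocyte genes a median of 9.31 against 4.69 to 5.64, with 4 of 4 highest. The gonadal origin of the samples was checked with 8 somatic markers, among them Wt1 and Amhr2, whose median was 11.86 and 11.91 on day 0, 9.86 to 11.02 on days 4 to 15, 9.79 on day 20 replicate 2 and 9.32 on day 20 replicate 1. Their day 10 differences from day 0 were -3.39 for Lhx9, -1.77 for Fst, -1.50 for Nr5a1 and -1.48 for Gata4. For Wt1 and Amhr2 they were -0.83 and -0.32, and for Foxl2 and Star 1.29 and 2.08. Of these 8 markers, 3 were called lower and 1 higher between days 0 and 10, while 5 of 8 genes of stroma and mesenchyme were called higher. By the same test, described below, 2.01% of all genes fell and 3.87% rose. These shifts in tissue markers were seen on the same arrays as the Hox values below, and their part in those values was not tested. Values under 4.82, the 25th percentile of all values, were taken as near background. By that measure 24 Hox genes were above it on all arrays, Hoxb9, Hoxb13 and Hoxd11 on some, and Hoxa4, Hoxa11, Hoxa13, Hoxb1, Hoxd1 and Hoxd12 on none.

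As a group, the Hox genes moved little, and those that passed the test were all lower in the grafts. A gene was called when limma gave an adjusted p under 0.05 (Benjamini-Hochberg over all probe sets) and the day means differed by more than 2-fold. Between days 0 and 10, 1 of 33 Hox genes was called lower and 0 higher, against 2.01% lower and 3.87% higher over all genes. Between days 0 and 20, again 1 was lower and 0 higher, against 4.51% and 6.31%. The called gene was Hoxd9 in both, so that the share of members called was close to or under that of all genes.

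Against day 0, the lone arrays of days 4, 7 and 15 gave 0, 0 and 1 Hox genes lower and 0 higher. Over all genes, 0.236% were called lower and 1.21% higher on day 4, 0.583% and 1.87% on day 7, and 1.25% and 2.84% on day 15. These arrays were taken to vary like the duplicated days. At an unadjusted p under 0.05, 4, 3 and 6 Hox genes (12.1%, 9.09% and 18.2%) were lower on the 3 days and 0 were higher, against 13.3%, 16.9% and 23.1% of all genes in either direction. Between days 10 and 20 limma called 0 Hox genes in either direction, against 0% of all genes lower and 0.0055% higher. In that comparison 0 Hox genes had an unadjusted p under 0.05, against 7.04% of all genes.

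A further comparison, added after the data had been seen, set the mean of the 5 graft days against day 0. It called 3 Hox genes lower (Hoxd9, Hoxd10 and Hoxd3) and 0 higher, against 2.65% and 5.46% of all genes. The graft days share the 2 day 0 arrays in all these comparisons, so that they are not independent of each other. Without day 20 replicate 1 it again called Hoxd9, Hoxd10 and Hoxd3, and without either day 0 array it called 0.

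The median log2 difference from day 0 over the 33 genes was -0.21 on day 10 and -0.16 on day 20, beside -0.13 and -0.14 over all genes. Of the 33, 26 differed by under 0.5 in size on day 10 and 25 on day 20. For 9 Hox genes (27.3%) all 7 graft arrays lay below both day 0 arrays, against 24.0% of all genes. For 0 Hox genes all graft arrays lay above both, against 12.4% of all genes. The 9 were unevenly spread over the clusters, with 5 of 8 Hoxd genes (Hoxd3, Hoxd9, Hoxd10, Hoxd11 and Hoxd12), 2 of 9 Hoxa genes (Hoxa5 and Hoxa13), 1 of 9 Hoxb genes (Hoxb9) and 1 of 7 Hoxc genes (Hoxc5). Hoxa13 and Hoxd12 are among the genes near background on every array.

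**Figure D1:**
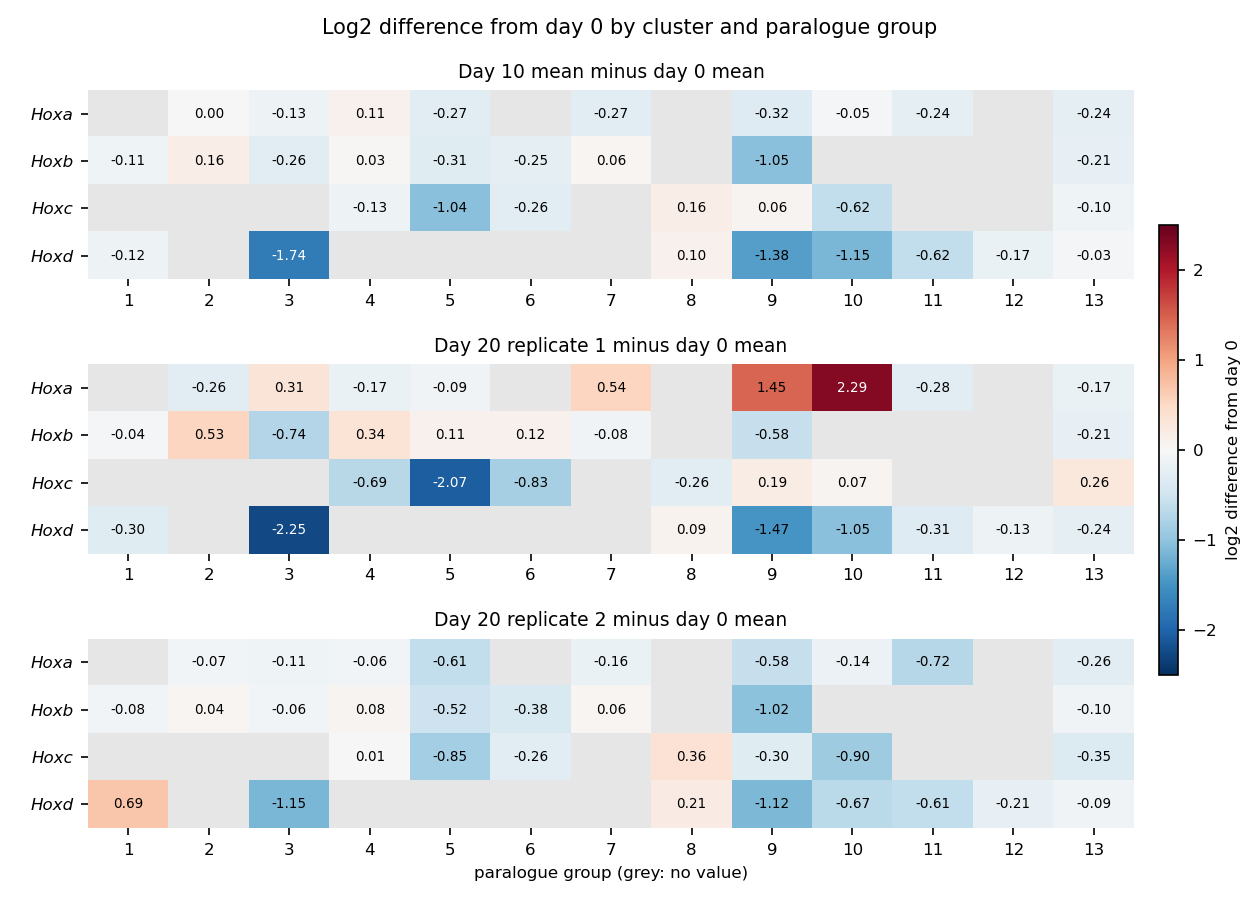
Log2 difference from the day 0 mean for each measured Hox gene, with clusters in rows and paralogue groups in columns, for the day 10 mean and for each day 20 array (grey, no value). The darkest blue cells are Hoxd3 and Hoxd9 in the day 10 panel and Hoxd3 and Hoxc5 on day 20 replicate 1, and the red cells at Hoxa9 and Hoxa10 appear on day 20 replicate 1 and not on replicate 2.

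The Hoxd cluster was read through 8 genes, of which Hoxd9, Hoxd10 and Hoxd3 were lower in grafts and Hoxd8 was close to its day 0 level from day 7 onward. Hoxd9, a posterior gene that acts in the limb and lower spine, was at a log2 intensity of 11.62 and 11.44 on day 0, 10.01 on day 4, 10.52 on day 7, 10.10 and 10.21 on day 10, 9.96 on day 15, and 10.07 and 10.41 on day 20. All 7 graft arrays lay below both day 0 arrays, by at least the gap between 11.44 and 10.52. On day 10 the difference was -1.38 (SE 0.19, n = 2 against 2), a 2.61-fold lower intensity, with a limma adjusted p of 0.0194. On day 20 it was -1.29 (SE 0.19, limma adjusted p = 0.016) and on day 15 -1.57 (SE 0.23, limma adjusted p = 0.0318). The lone arrays of day 4, at -1.52 (SE 0.23), and day 7, at -1.01 (SE 0.23), did not pass (limma adjusted p = 0.0594 and 0.125). Days 10 and 20 differed by 0.09 (SE 0.19, limma adjusted p = 0.982). The day 10 call was lost without any single day 0 or day 10 array (limma adjusted p from 0.101 to 0.168). The day 20 call stood without day 20 replicate 1 (-1.12, limma adjusted p = 0.034) and was lost without either array of day 0 or day 10 (0.0609 to 0.0941).

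Hoxd10, which specifies motor neurons of the hindlimb, lies next to Hoxd9. Its log2 intensity was 9.15 and 9.41 on day 0, 7.18 on day 4, 7.95 on day 7, 7.88 and 8.38 on day 10, 7.96 on day 15, and 8.23 and 8.61 on day 20. The groups did not overlap, the lowest value was that of day 4, and the graft array nearest to day 0 was day 20 replicate 2. The day 4 difference, -2.10 (SE 0.30), missed the threshold with a limma adjusted p of 0.0548, and so did day 10 at -1.15 (SE 0.25, limma adjusted p = 0.0657) and day 20 at -0.86 (SE 0.25, limma adjusted p = 0.0909). Under the alternative settings described below, Hoxd10 was called in 7 of 15 on day 4 and in 8 of 17 on day 10. On day 7 and on day 15 it was called in 0 of 15. Over the 5 graft days Hoxd10 fell by 1.35 (SE 0.20, limma adjusted p = 0.0171).

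Hoxd3, a gene of the anterior end of the cluster that shapes the first neck vertebra, was at 7.95 and 8.31 on day 0, 6.12 on day 4, 6.61 on day 7, 6.55 and 6.23 on day 10, 6.48 on day 15, and 5.88 and 6.98 on day 20. Again no graft array reached the lower day 0 array, although the day 20 arrays differed from each other by 1.10. Over the 5 graft days Hoxd3 fell by 1.72 (SE 0.31, limma adjusted p = 0.0305), a 3.30-fold lower intensity. The single days missed the threshold, with -1.74 (SE 0.38) on day 10 and -1.70 (SE 0.38) on day 20 and limma adjusted p-values of 0.0712 and 0.0521. A probe set shared by Hoxd4 and Hoxd3 passed on both days (-1.16 and -1.20, limma adjusted p = 0.0361 and 0.0226). Another shared probe set did not (-0.65 and -0.61, limma adjusted p = 0.133 and 0.11). Under the alternative settings described below, Hoxd3 was called in 7 of 17 on day 10 and in 8 of 17 on day 20. For Hoxd3 these counts were 2 of 15 on day 4, 0 of 15 on day 7 and 2 of 15 on day 15. Without day 20 replicate 1 the difference over the graft days was -1.61 (limma adjusted p = 0.011).

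Between these genes lies Hoxd8, which was measured at 10.39 and 10.03 on day 0, 9.46 on day 4, 10.02 on day 7, 10.39 and 10.22 on day 10, 10.18 on day 15, and 10.30 and 10.42 on day 20. Day 4 was the lowest array, and the other graft arrays overlapped with day 0 or lay just outside it. The differences were -0.75 (SE 0.23) on day 4, 0.10 (SE 0.19) on day 10 and 0.15 (SE 0.19) on day 20, with limma adjusted p-values of 0.327, 0.809 and 0.649. A further Hoxd8 probe set gave 0.14 on day 10 and 0.15 on day 20. Whether Hoxd8 differed from its neighbours in its change was not tested.

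Of the remaining Hoxd genes, Hoxd11 was at 4.97 and 4.90 on day 0 and between 4.27 and 4.66 on the graft arrays, a difference of -0.62 (SE 0.17) on day 10 with a limma adjusted p of 0.113. All its values lie close to the background limit of 4.82. Hoxd13, a gene of the digits and the external genitalia, stayed between 4.95 and 5.29 over the 9 arrays on the probe set used. A second Hoxd13 probe set was at 5.12 and 5.39 on day 0 and at 4.77 to 4.84 on the graft arrays. That probe set differed from day 0 by -0.41 on day 10 and -0.44 on day 20 (limma adjusted p = 0.234 and 0.158). Hoxd12 (3.69 to 3.98) and Hoxd1 (3.68 to 4.66) were near background throughout.

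**Figure D2:**
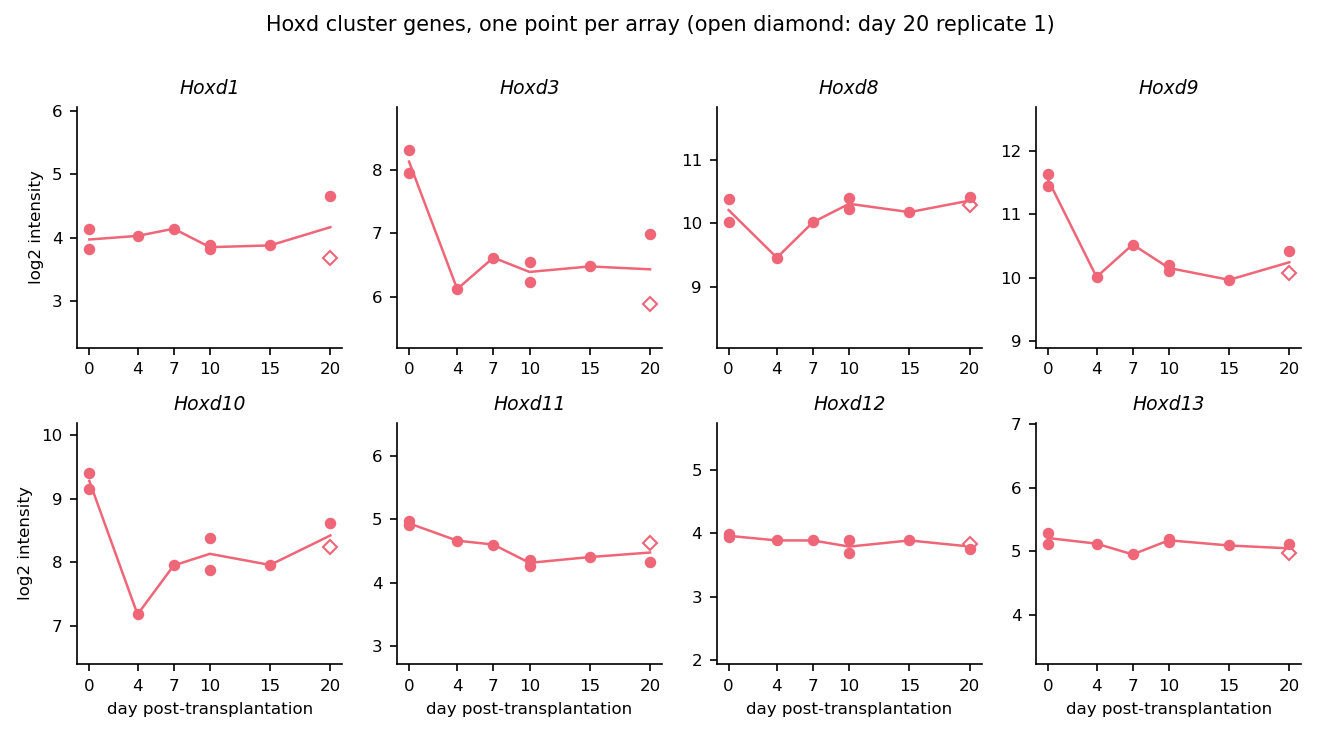
Log2 intensity of the 8 Hoxd genes against day post-transplantation, 1 point per array, with a line through the day means and an open diamond for day 20 replicate 1; each panel spans the same number of log2 units. Hoxd9 drops from 11.44 or more to 10.52 or less, Hoxd10 and Hoxd3 also lie below day 0 on all graft arrays, and Hoxd8 lies at 10.02 or above from day 7.

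In the Hoxc cluster, limma called 0 of 7 genes, and only Hoxc5 had an unadjusted p under 0.05 on day 10 or day 20. Hoxc5, a gene of the neck and upper trunk, was at a log2 intensity of 9.65 and 10.02 on day 0, 9.32 on day 4, 9.09 on day 7, 8.72 and 8.87 on day 10, 8.50 on day 15, and 7.77 and 8.98 on day 20. The graft arrays were all lower, and the lowest value was that of day 20 replicate 1. The differences were -1.04 (SE 0.40) on day 10 and -1.46 (SE 0.40) on day 20, and neither passed (limma adjusted p = 0.226 and 0.0835). Both other Hoxc5 probe sets were lower too, by 0.60 to 0.91 on day 10 and by 0.91 to 1.12 on day 20. Without day 20 replicate 1 the day 20 difference was -0.85 (limma adjusted p = 0.0907).

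Hoxc8, which patterns motor neurons of the forelimb, is the counterpart of Hoxd8. It was measured at 9.83 and 9.93 on day 0, 9.85 on day 4, 10.05 on day 7, 10.00 and 10.09 on day 10, 9.96 on day 15, and 9.63 and 10.25 on day 20. The range of its day means was 0.21, and the day 10 difference was 0.16 (SE 0.24). Hoxc4 was at 9.46 and 9.33 on day 0, 9.04 on day 4, 9.32 on day 7, 9.41 and 9.13 on day 10, 8.80 on day 15, and 8.70 and 9.41 on day 20, so that the groups overlapped. Its day 20 difference was -0.34 (SE 0.27, limma adjusted p = 0.465). Hoxc10 was lower on both day 10 arrays (6.30 and 6.75) and on day 20 replicate 2 (6.25) than on the other arrays (7.04 to 7.52), with a day 10 difference of -0.62 (SE 0.35, limma adjusted p = 0.386). Hoxc6 (6.82 to 7.86), Hoxc9 (7.46 to 8.02) and Hoxc13 (4.94 to 5.55) had no call in any comparison.

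The Hoxa genes had no call either, but 2 of them stood apart on the array with kidney transcripts. Hoxa10, which patterns the uterus and also acts in kidney development, was at 5.61 and 5.86 on day 0, 5.90 on day 4, 5.91 on day 7, 5.67 and 5.71 on day 10, 5.85 on day 15, and 8.02 and 5.60 on day 20. Day 20 replicate 1 exceeded the highest of the other 8 arrays by 2.11, and replicate 2 was the lowest of all 9. The day 20 mean therefore differed from day 0 by 1.07 (SE 0.74, limma adjusted p = 0.408), and without replicate 1 the difference turned to -0.14 (limma adjusted p = 0.634). A further Hoxa10 probe set was near background, at 3.59 to 4.10 on all arrays.

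Hoxa9, its neighbour, was at 8.10 and 8.51 on day 0, 8.10 on day 4, 8.32 on day 7, 7.85 and 8.13 on day 10, 7.82 on day 15, and 9.76 and 7.72 on day 20. Here too replicate 1 was highest, by 1.25 over the highest other array, and replicate 2 lowest. The second Hoxa9 probe set ranked these arrays the same way, at 7.18 on replicate 1 and 6.16 on replicate 2. With replicate 1 as the only day 20 array, 5 Hox genes were called on day 20, with Hoxa9 and Hoxa10 higher and Hoxc5, Hoxd3 and Hoxd9 lower, and with replicate 2 alone Hoxd9 was called.

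Hoxa5, a gene of the lung and the neck and chest skeleton, was at 8.41 and 8.52 on day 0, 7.98 on day 4, 7.96 on day 7, 8.13 and 8.27 on day 10, 7.29 on day 15, and 8.37 and 7.86 on day 20. On this probe set all graft values were below day 0, most of them by little, and day 15 was lowest. The day 15 difference was -1.17 (SE 0.26, limma adjusted p = 0.092), from 1 array. A second Hoxa5 probe set was at 7.68 and 7.72 on day 0. Its graft arrays lay between 7.18 on day 7 and 7.80 on day 20 replicate 1, which was above day 0. The day 15 value of that probe set, 7.19, differed from day 0 by -0.50. Hoxa7 was at 6.65 to 7.15 on 8 arrays and at 7.65 on day 20 replicate 1. Hoxa2 (5.79 to 6.27) and Hoxa3 (6.203 to 6.74) spanned under 0.6, and Hoxa4, Hoxa11 and Hoxa13 were near background.

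In the Hoxb cluster limma called 0 of 9 genes, and only Hoxb9 had an unadjusted p under 0.05 on day 10 and none on day 20. Hoxb2, which patterns the hindbrain, was at 7.13 and 7.07 on day 0, 7.67 on day 4, 7.28 on day 7, 7.37 and 7.16 on day 10, 7.10 on day 15, and 7.63 and 7.14 on day 20. Hoxb3 was at 7.49 and 7.14 on day 0, 6.95 on day 4, 7.05 on day 7, 7.18 and 6.93 on day 10, 6.95 on day 15, and 6.57 and 7.25 on day 20. In both genes the graft arrays overlapped with day 0. Hoxb9 is named here because its values stood out after they were seen, with 6.43 and 5.34 on day 0 and 4.79 to 5.30 on the graft arrays. Its 2 day 0 arrays differed by 1.09, and the day 10 difference of -1.05 (SE 0.38) had a limma adjusted p of 0.198. On day 0 replicate 1 the skeletal muscle list had a median of 7.36, against 4.76 to 5.38 on the other arrays. Its part in the Hoxb9 value, or in other differences from day 0, was not tested. Hoxb4 (6.39 to 6.76), Hoxb5 (5.26 to 6.12), Hoxb6 (5.74 to 6.57) and Hoxb7 (5.41 to 5.66) had no call, Hoxb13 was at 4.47 to 4.93, and Hoxb1 was near background.

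**Figure D3:**
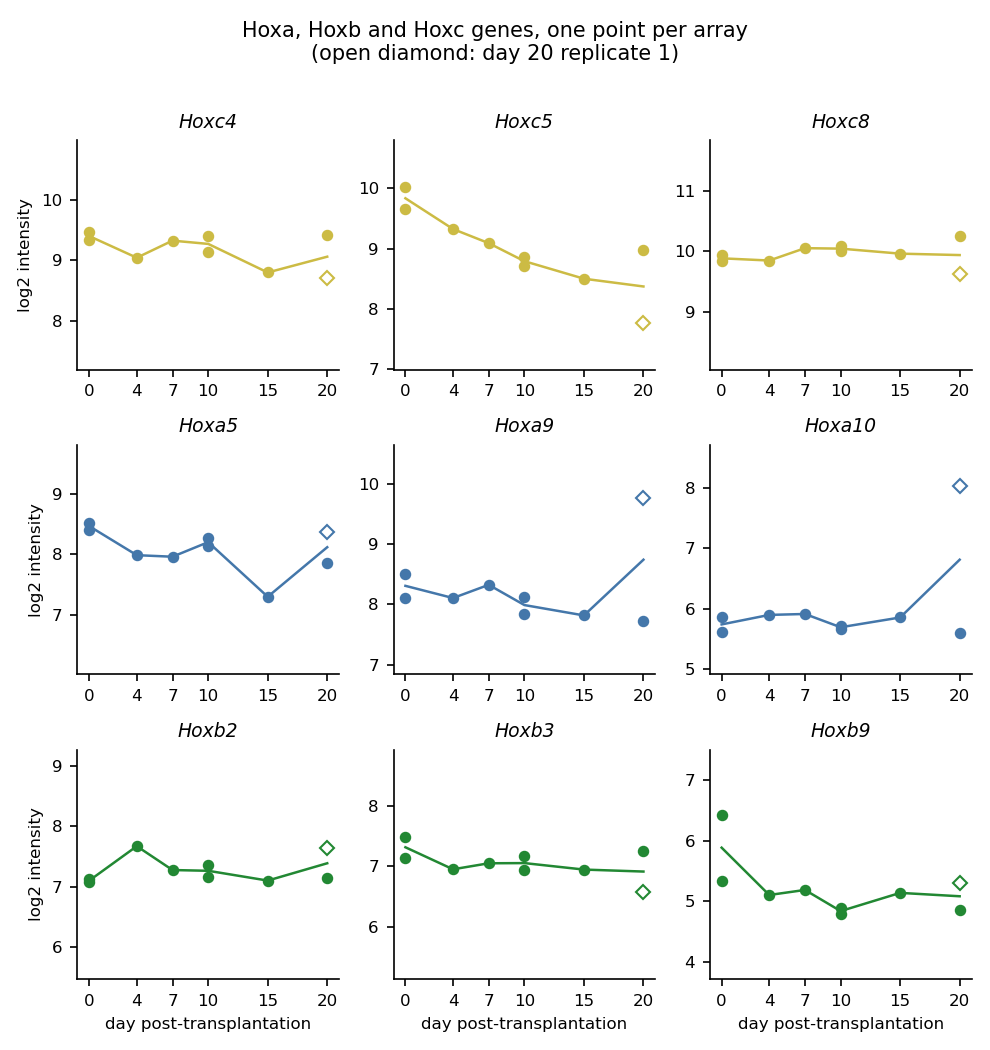
Log2 intensity of 9 genes of the Hoxa (blue), Hoxb (green) and Hoxc (yellow) clusters against day post-transplantation, 1 point per array, with a line through the day means and an open diamond for day 20 replicate 1; each panel spans the same number of log2 units. Hoxc5 lies lower on all graft arrays, Hoxa9 and Hoxa10 rise on the open diamond alone (9.76 and 8.02), and Hoxb9 has 1 high value, 6.43 on day 0 replicate 1.

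Read by paralogue group, members that share a number often moved by different amounts. In group 9, the day 10 differences were -1.38 for Hoxd9, -1.05 for Hoxb9, -0.32 for Hoxa9 and 0.06 for Hoxc9. In group 10 they were -1.15 for Hoxd10, -0.62 for Hoxc10 and -0.05 for Hoxa10, and in group 3 -1.74 for Hoxd3, -0.26 for Hoxb3 and -0.13 for Hoxa3. In group 5, Hoxc5 was at -1.04, Hoxb5 at -0.31 and Hoxa5 at -0.27. Groups 4 and 8 held no such member, with -0.13 to 0.11 over Hoxa4, Hoxb4 and Hoxc4 and 0.10 to 0.16 over Hoxc8 and Hoxd8. Groups 1, 2, 6, 7, 11, 12 and 13 were all within -0.62 and 0.16. Members of a group are not replicates, so that no test was run on these differences.

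By cluster, the median difference on day 10 was -0.24 for Hoxa, -0.21 for Hoxb, -0.13 for Hoxc and -0.40 for Hoxd, beside -0.13 over all genes. On day 20 these medians were -0.12, -0.13, -0.34 and -0.31, beside -0.14 over all genes. Below 0 on day 10 were 8 of 9 Hoxa, 6 of 9 Hoxb, 5 of 7 Hoxc and 7 of 8 Hoxd genes. The Hoxd genes are the only cluster with a call, and a difference between clusters was not tested.

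The 2 day 20 arrays differed more from each other than the duplicates of days 0 and 10, in the Hox genes as over all genes. The SD of the difference between duplicates over the 33 genes was 0.31 on day 0, 0.24 on day 10 and 0.77 on day 20, beside 0.447, 0.343 and 0.697 over all probe sets. Replicate 1 was the highest of the 9 arrays for 6 Hox genes (Hoxa3, Hoxa7, Hoxa9, Hoxa10, Hoxb4 and Hoxc13), or 18.2%, against 13.9% of all genes. It was the lowest for 9 (27.3%), against 30.4% of all genes, among them Hoxc4, Hoxc5, Hoxc6 and Hoxc8. The kidney lists given above were high on that array and not on its duplicate, and their part in these values was not tested. Hoxd9 and Hoxd3 were lower than on day 0 on both arrays, by 1.47 and 2.25 on replicate 1 and by 1.12 and 1.15 on replicate 2 on the log2 scale.

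**Figure D4:**
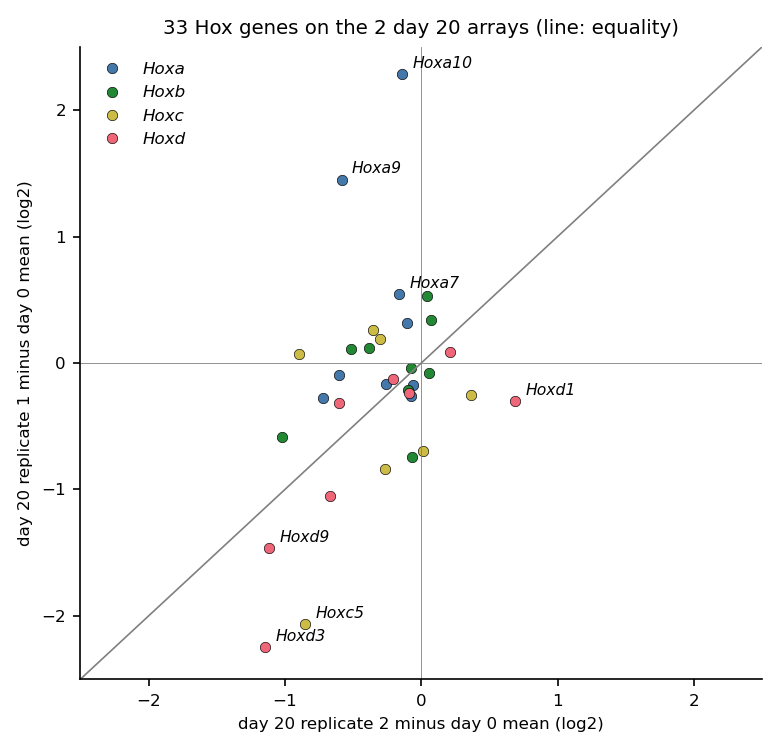
Log2 difference from the day 0 mean for the 33 Hox genes on day 20 replicate 1 (vertical) against replicate 2 (horizontal), coloured by cluster, with the line of equality. Hoxa10 and Hoxa9 lie far above the line, at 2.29 and 1.45 on replicate 1, while Hoxd3, Hoxd9 and Hoxc5 are below 0 on both arrays.

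HOX proteins bind DNA together with TALE homeodomain cofactors of the PBX, MEIS and PKNOX families. Of 9 listed cofactors 8 were measured, and limma called 0 on day 10 with all arrays. On that day 4 (50%) had an unadjusted p under 0.05, all of them lower, against 26.5% of all genes in either direction. Pbx2 fell by 1.25 on day 10 and missed the threshold (SE 0.27, limma adjusted p = 0.0647). The SE of that difference was 0.12 without day 20 replicate 1, whose spread enters every comparison. The 0 on day 10 therefore depends on that array. On day 20, 2 were called lower and 0 higher, against 4.51% and 6.31% of all genes. The median over the list was -0.82, beside -0.14 over all genes. Pbx2 was at 11.07 and 11.12 on day 0, 10.40 on day 4, 10.00 on day 7, 9.86 and 9.85 on day 10, 9.78 on day 15, and 8.95 and 9.71 on day 20. Its values lay lower on every later day than on day 0, and on day 20 Pbx2 fell by 1.77 (SE 0.27, limma adjusted p = 0.0181), or by 1.39 without replicate 1 (limma adjusted p = 0.0168). Meis3 was at 7.23 and 7.09 on day 0, 7.35 on day 4, 6.96 on day 7, 6.03 and 6.38 on day 10, 6.19 on day 15, and 6.04 and 5.82 on day 20. On day 20 Meis3 fell by 1.23 (SE 0.19, limma adjusted p = 0.0205), or by 1.34 without replicate 1 (limma adjusted p = 0.0388). Meis1, at -1.05 (limma adjusted p = 0.0745), and Meis2, at -0.18 (limma adjusted p = 0.708), did not pass on day 20.

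Regulators upstream of the clusters include the Cdx homeobox factors, which drive trunk Hox genes, and the retinoic acid pathway. Of 17 measured genes of this list, 1 was called higher and 1 lower on day 10, and 1 higher and 0 lower on day 20. Among all genes, calls at day 10 made up 3.87% for rises and 2.01% for falls. The day 20 calls made up 6.31% for rises and 4.51% for falls. These shares hold with all arrays, and none is given without day 20 replicate 1. Cdx2 was at 6.04 and 6.36 on day 0 and at 5.08 to 5.63 on all 7 graft arrays. On day 10 Cdx2 fell by 1.05 (SE 0.18, limma adjusted p = 0.0365). Aldh1a1, an enzyme that makes retinoic acid, was at 10.64 and 11.03 on day 0 and at 11.54 to 12.19 on the graft arrays, and rose by 1.18 on day 10 (SE 0.22, limma adjusted p = 0.0487). Aldh1a2, another enzyme of the same step, was at 11.03 and 11.13 on day 0, 10.58 on day 4, 10.93 on day 7, 10.24 and 10.16 on day 10, 9.71 on day 15, and 8.08 and 9.70 on day 20. All graft arrays lay below day 0, and day 20 replicate 1 was lowest. The day 20 difference of -2.19 (SE 0.50) missed the threshold with both arrays (limma adjusted p = 0.0535) and passed without replicate 1 (-1.38, limma adjusted p = 0.0188). The receptor genes Rara, Rarb, Rarg, Rxra, Rxrb and Rxrg were not called on any day with all arrays, and without day 20 replicate 1 Rxrg was called lower on day 20 (-1.10, limma adjusted p = 0.0491). Without that array the list had 1 gene called higher and 2 lower on day 20.

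Fgf8, a growth factor of the tail bud that growing oocytes also make, was at 4.58 and 4.83 on day 0, 4.78 on day 4, 4.87 on day 7, 5.29 and 6.40 on day 10, 7.39 on day 15, and 7.45 and 7.96 on day 20. The arrays of days 15 and 20 lay above all earlier ones. Day 0 replicate 1 and day 4 were under the background limit of 4.82, and day 0 replicate 2 and day 7 just above it. On day 20 Fgf8 was called higher with both arrays (limma adjusted p = 0.0127) and without replicate 1 (limma adjusted p = 0.0352), and because day 0 lay at the background limit no fold is given.

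Polycomb proteins keep Hox genes silent and trithorax proteins keep them active. Among 18 measured Polycomb genes, 1 was called lower on day 10, and 2 were called lower and 1 higher on day 20. Over all genes 2.01% were called lower on day 10, and 4.51% lower and 6.31% higher on day 20. Cbx2, which reads the repressive histone mark and whose loss in mice disturbs both the skeleton and the gonad, was at 8.95 and 9.07 on day 0, 7.82 on day 4, 7.72 on day 7, 7.52 and 7.89 on day 10, 7.86 on day 15, and 7.55 and 8.01 on day 20. All graft arrays lay below day 0, and on day 10 Cbx2 fell by 1.31 (SE 0.23, limma adjusted p = 0.039). On day 20 it fell by 1.23 (SE 0.23, limma adjusted p = 0.0313), a call that was lost without replicate 1 (-0.998, limma adjusted p = 0.0669).

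Bmi1 and Pcgf2 encode alternative RING finger subunits of the same Polycomb complex and moved in opposite directions. Bmi1 was at 9.85 and 9.98 on day 0, 10.26 on day 4, 10.35 on day 7, 10.71 and 10.64 on day 10, 10.98 on day 15, and 10.88 and 11.12 on day 20. Pcgf2 was at 6.48 and 6.90 on day 0, 6.47 on day 4, 6.18 on day 7, 5.81 and 5.72 on day 10, 5.77 on day 15, and 5.42 and 5.54 on day 20. On day 20 Bmi1 rose by 1.09 (SE 0.16, limma adjusted p = 0.0185) and Pcgf2 fell by 1.21 (SE 0.19, limma adjusted p = 0.0209). Without replicate 1 the Bmi1 call stood (1.21, limma adjusted p = 0.0251) and the Pcgf2 call did not (-1.15, limma adjusted p = 0.0567). Ezh2, Eed and Suz12, the core of the enzyme complex that writes the mark, were not called on any day, and of 10 measured trithorax and related genes limma called 0 on days 10 and 20, where 1 and 2 of them had an unadjusted p under 0.05, against 26.5% and 34.5% of all genes.

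Geminin (Gmnn), a replication inhibitor that also binds HOX proteins, was at 10.03 and 10.52 on day 0 and at 8.96 to 9.47 on the graft arrays, and over the 5 graft days it fell by 1.03 (SE 0.17, limma adjusted p = 0.0225). Hmga2, an architectural chromatin protein of proliferating embryonic cells, was at 12.69 and 12.05 on day 0 and at 8.25 to 9.37 on the graft arrays. On day 10 Hmga2 fell by 3.22 (SE 0.34, limma adjusted p = 0.0101) and on day 20 by 3.71 (SE 0.34, limma adjusted p = 0.00473). Lin28b, the third gene of that list, was near background on all arrays. The cell cycle list had a median of 11.01 and 11.11 on day 0 and of 9.49 to 10.76 on the graft arrays, and its part in the values of Gmnn and Hmga2 was not tested.

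**Figure D5:**
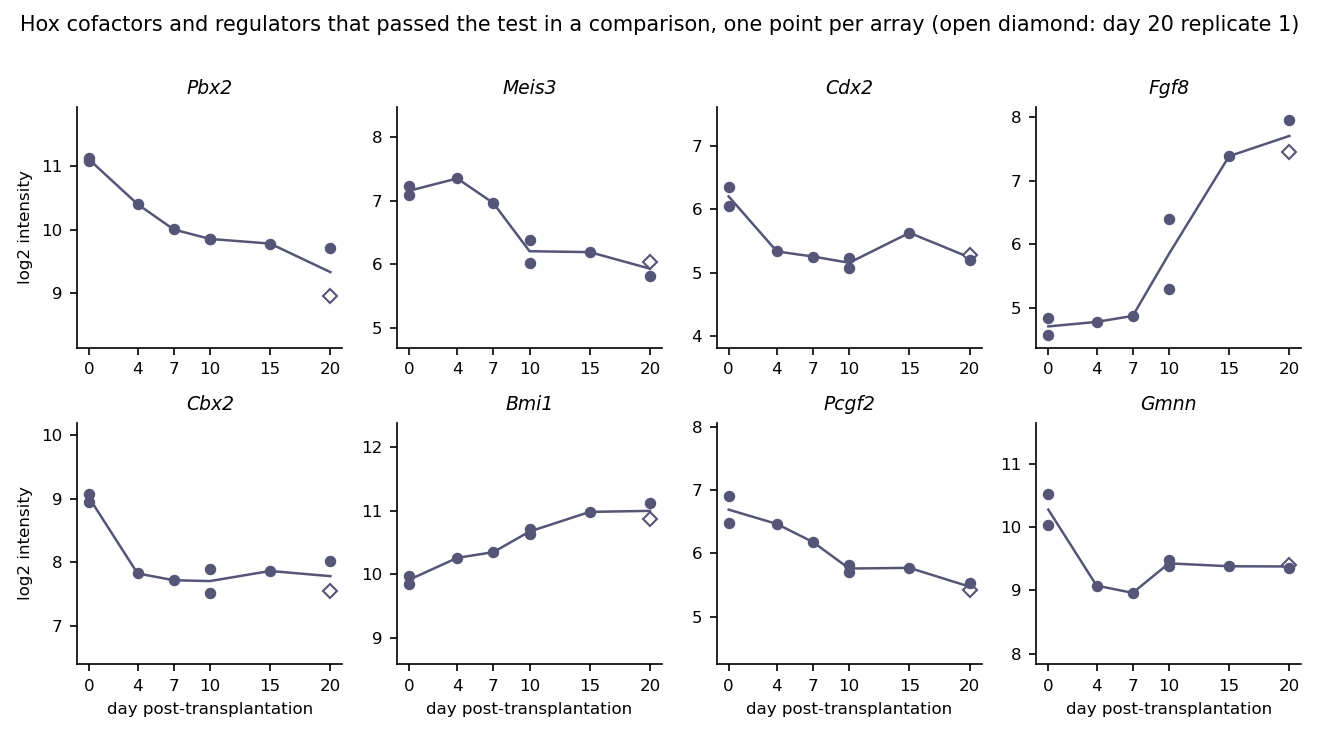
Log2 intensity of 8 cofactors and regulators of Hox genes that passed the test in at least 1 comparison, against day post-transplantation, 1 point per array, with a line through the day means and an open diamond for day 20 replicate 1; each panel spans the same number of log2 units. Pbx2, Meis3, Cdx2, Cbx2, Pcgf2 and Gmnn are lower on days 10 and 20 than on day 0, and Fgf8 and Bmi1 are higher.

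The genes that flank the clusters were followed through the nearest 3 measured genes on each side. Of these 24 genes limma called 0 on day 10, where 4 (16.7%) had an unadjusted p under 0.05 against 26.5% of all genes. On day 20, 1 was called higher and 1 lower, against 6.31% and 4.51% of all genes. Beside the Hoxd cluster, Lnpk differed from day 0 by 0.06 on day 10 and -0.41 on day 20, Evx2 by -0.30 and -0.60, and Mtx2 by -0.23 and -0.41, with no call. Nfe2l2, a stress response factor further along the same side, rose over the 5 graft days by 1.03 (SE 0.18, limma adjusted p = 0.0266). Its day 10 difference was 1.03 (SE 0.16) without day 20 replicate 1, and the 0 on day 10 depends on that array. Evx1, a homeobox gene next to Hoxa13, was at 4.91 and 5.81 on day 0 and at 7.22 and 7.22 on day 20, and rose by 1.86 (SE 0.35, limma adjusted p = 0.0321), a call that was lost without day 20 replicate 1 (1.86, limma adjusted p = 0.088). Cbx5, next to the Hoxc cluster, fell by 1.33 on day 20 (SE 0.22, limma adjusted p = 0.0235). None of the 3 nearest measured genes on either side of the Hoxd cluster was called lower on day 10 or day 20. Over all genes 2.01% and 4.51% were called lower on these days. Whether the change ended at the edges of the cluster was not tested.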

How the data were processed

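RNA of ungrafted and grafted fetal ovaries was hybridised to 9 Affymetrix whole-genome mouse arrays. The authors deposited RMA values, which are log2 intensities after background correction, quantile normalization and summary of the probes, for 45101 probe sets. No source used here gives the RMA version, or the labelling kit of each array. A single gene symbol was annotated for 34958 probe sets, several for 932 and none for 9211. Quantile normalization sets all arrays to the same distribution, so that values are relative within an array, and levels were not compared between probe sets. The files carry no detection calls. The number of arrays, 2 or 1 a day, limits the precision.

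With limma (version 3.58.1, under R 4.3.3), a model with a mean per day was fitted to all probe sets with lmFit and eBayes, which had 3 residual and 2.69 prior degrees of freedom and a prior variance of 0.0423. Adjusted p-values are after Benjamini-Hochberg over all probe sets, and a call needed 0.05 and over 2-fold. Shares over all genes use the same probe set rule. P-values measure the spread between the duplicated arrays. The procedure was tested on simulated data. Further tools were pandas 2.3.3, numpy 2.4.6, matplotlib 3.10.9 and Python 3.11.15, and promoters came from RefSeq.

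Array values were given for Hox genes called in a comparison, the 2 with the highest mean in each cluster and the 6 with the largest range of day means, and up to 4 called genes of each companion list were named. The members and lists were chosen with earlier results of these data known. The cell type lists were kidney proximal tubule, kidney loop with distal tubule and collecting duct, duct epithelium, gonadal somatic, stroma and mesenchyme, germ cell, macrophage, erythroid, adipocyte, skeletal muscle, endothelium and cell cycle genes. Alternatives were an intensity trend, array quality weights, renormalization, centring, filters on low values, only the arrays of the compared days, a replicate block, other fold thresholds, the mean of all probe sets of a gene, adjustment over genes, and each duplicated array left out.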

Additional observations from a re-analysis of the deposited data

How the results depend on the processing

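The number of Hox genes called between days 0 and 10 (1, Hoxd9) became 3 with array weights, 2 with quantile normalization, 2 with centred arrays, 3 among probe sets above the median, 0 with low values raised to the 25th percentile, 3 with only the arrays of these days, 2 with the mean of all probe sets, 3 with adjustment over genes, 5 by fold alone, and 4 with day 15 taken with day 20 replicate 2, an alternative chosen after seeing the data. Between days 0 and 20 (1, Hoxd9) these numbers were 2 with an intensity trend, 2 with quantile normalization, 2 with centring, 2 above the median, 0 with raised low values, 0 with only the arrays of these days, 3 with mean probe sets, 2 over genes, 4 by fold alone and 3 with day 15 added. Between days 10 and 20, 1 gene passed by fold alone. On day 4 (0), 2 were called with a trend, 2 with weights, 2 with quantile normalization, 2 with centring, 2 above the median, 2 with mean probe sets, 2 over genes and 3 by fold alone. On day 7 (0), 3 passed by fold alone, and on day 15 (1), 2 with weights, 0 with raised low values and 5 by fold alone. These counts are out of 33 Hox genes. By fold alone, 11.6% of all genes passed on day 10, 17.4% on day 20 and 4.89% between days 10 and 20. On days 4, 7 and 15 these shares were 8.59%, 10.3% and 13.3%. For the other alternatives no share over all genes is given. Over all graft days (3), 1 was called with raised low values. Leaving out each duplicated array in turn gave 0 to 3 genes on day 10, 0 to 5 on day 20, 0 to 2 between days 10 and 20, 0 to 2 on day 4, 0 to 4 on day 15 and 0 to 4 over all graft days. The Hoxa10 difference of day 20 turned negative without day 20 replicate 1 and had its highest value without replicate 2, with a range of -0.143 to 2.29 against day 0 and of -0.0956 to 2.33 against day 10, and it was -0.0138 against day 0 with day 15 added. Of 392 values over 25 differences of single genes, 302 kept direction and call, 28 lost a call, 59 gained a call and 3 turned sign. The cause of these shifts was not tested.

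Replicate numbers were not taken as pairs in the model. The correlations of the duplicates' deviations were -0.158 for days 0 and 10, 0.154 for days 0 and 20 and -0.128 for days 10 and 20. They cannot show whether arrays were paired, because tissue differences between duplicates, such as the kidney transcripts of day 20 replicate 1, also enter them. With the replicate block, 2 Hox genes were called on day 10 and 0 on day 15.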

Other observations

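Probe sets shared by 2 Hox genes lie outside the counts of Hox genes above. A probe set for Hoxd4 and Hoxd3 was at a log2 intensity of 8.24 and 8.51 on day 0 and at 7.03 to 7.33 on the 7 graft arrays, and over the 5 graft days it differed from day 0 by -1.19 (limma adjusted p = 0.0129). A second was at 7.92 and 8.07 on day 0 and at 6.93 to 7.58 on the graft arrays, with a difference of -0.81 (limma adjusted p = 0.0337). The probe set for Hoxb8 and Hoxb7 was at 6.24 on day 20 replicate 1 and at 5.13 to 5.63 on the other 8 arrays.

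Among antisense transcripts, Hoxb5os was at 8.91 on day 20 replicate 1 and at 6.08 to 6.75 on the other arrays. Hoxd3os1 was at 8.06 on average, with 9.07 and 8.16 on day 0 and 7.37 to 8.51 on the graft arrays, and was not called. Hoxa11os was near background in both of its probe sets.

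Other tissue markers changed over the same days. On day 10, 5 of 6 macrophage genes were called higher and 0 lower (median 2.01), and 4 of 5 erythroid genes lower and 0 higher (median -5.33). In the same comparison 1 of 6 germ cell genes and 1 of 6 endothelial genes were called higher, 1 of 6 duct epithelium genes lower, and limma called 0 of 5 skeletal muscle and 0 of 5 cell cycle genes, with medians of -1.34 and -0.39. On day 20, 6 of 6 macrophage genes were called higher and 2 of 5 cell cycle genes lower. The germ cell list had a median of 7.53 and 9.76 on the 2 day 0 arrays.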
